A study of Homo sapiens with 2 samples.

Results

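Neuronal cytoskeleton and neurofilament genes are described here through 10 genes chosen by name: NEFL, NEFM, NEFH, INA, PRPH, MAP2, MAPT, MAP1B, TUBB3 and STMN2. Every symbol was found in the feature list of both libraries, so the members were 10 of 61487 listed genes. The study asked what the transcription factor FOXA2 does in the development of human serotonin neurons. Human embryonic stem cells of the line H9 (WA09) were differentiated, and EGFP-labelled cells were sorted at day 42 and sequenced with the 10x Genomics 3' kit (v3). Both libraries carried a TPH2-EGFP knock-in, 1 library was labelled WT, and 1 was labelled FKO for a further FOXA2 knockout. The knockout came from a clonal line in which an indel shifted the FOXA2 reading frame. In parts of the study the WT and FKO cultures received different concentrations of the Hedgehog agonist purmorphamine. The concentration behind these libraries is not given in the sources used here, so genotype and purmorphamine cannot be told apart.

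FOXA2 UMIs were higher in the library labelled FKO, which does not check the labels. With UMIs scaled to the library total (CPM), FOXA2 stood at 4.36 CPM (333 UMIs) labelled WT. Labelled FKO it stood at 21.4 CPM (1222 UMIs), which gave a log2 ratio of FKO over WT of 2.29 (95% interval 2.12 to 2.47). Among barcodes with under 5% mitochondrial UMIs the FOXA2 level was 12.9 CPM labelled WT, over 341 barcodes, and 13.9 CPM labelled FKO, over 2872 barcodes. A tag at the 3' end does not read the edited site, so the genotype was not checked, and each library is named by its label. FEV, a transcription factor of serotonin neurons, stood at 1582 CPM labelled WT and 909 CPM labelled FKO. TPH2, the enzyme that starts serotonin synthesis in the brain, stood at 198 CPM labelled WT and 162 CPM labelled FKO. All 9 serotonergic markers examined had UMIs in both libraries, and FEV was the most abundant of them in each. EGFP was not a feature in either file, so the sort itself could not be read.

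Depth differed, with 123064653 UMIs over 11052 barcodes labelled WT and 70588747 UMIs over 8806 barcodes labelled FKO. A barcode was kept when it had 1000 or more UMIs, 500 or more genes, no more than 10% mitochondrial UMIs and no doublet mark. That left 5741 barcodes labelled WT (51.9%), with a median of 12439 UMIs, and 6974 labelled FKO (79.2%), with a median of 6919 UMIs. RNA quality differed with the label. Of barcodes with 1000 or more UMIs and 500 or more genes, 39.8% labelled WT and 11.8% labelled FKO were over the mitochondrial limit. Mitochondrial UMIs made up 7.63% of kept UMIs labelled WT and 5.35% of those labelled FKO. The libraries shared 21 barcode sequences, of which 5 were kept in both. There were no replicates, so no test between libraries was made. The 95% intervals are exact and speak of counting error alone. The kit tags transcripts at the 3' end, so CPM pooled over barcodes were compared between genes without dividing by length. Whether reads in introns were counted is not given in the sources used here, and the part of gene length in these levels was not tested.

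Barcodes were sorted into classes by their UMIs. FEV-positive barcodes had at least 1 FEV UMI and UMIs of at most 1 of 10 cell cycle genes (MKI67, TOP2A, CENPF, UBE2C, CDK1, BIRC5, NUSAP1, TPX2, CCNB1 and ASPM). They made up 5490 kept barcodes labelled WT (95.6%) and 6220 labelled FKO (89.2%). Cycling barcodes had UMIs of at least 3 of those 10 genes, which gave 66 labelled WT and 103 labelled FKO. FEV-negative barcodes had no FEV UMI and at most 1 cell cycle gene, which gave 111 labelled WT (1.93%) and 572 labelled FKO (8.20%). This class depends on depth and on the FEV level, and both were lower labelled FKO. Exactly 1 FEV UMI was found in 114 barcodes labelled WT and 415 labelled FKO. The part of missed FEV UMIs in the class was not tested. Collagen barcodes had no FEV UMI and UMIs of at least 3 of COL1A1, COL1A2, COL3A1, LUM, DCN and COL6A3, which gave 2 labelled WT and 41 labelled FKO. The cycling class was not free of serotonergic transcripts, since 87.9% of its barcodes labelled WT and 63.1% of those labelled FKO held a FEV UMI.

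Neurofilaments are the intermediate filaments of neurons. The light, medium and heavy chains (NEFL, NEFM, NEFH) assemble together with alpha-internexin (INA) or peripherin (PRPH), fill large axons and set their calibre. Microtubules, built of alpha and beta tubulin, give the tracks along which neurons move cargo, and microtubule-associated proteins and stathmins set how stable those tracks are. Alpha-internexin is known as an early subunit of developing central neurons, peripherin as a subunit of peripheral neurons and some brainstem groups, and the heavy chain as a late one.

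The 10 genes spanned from the most abundant transcripts of the cells to the edge of detection. STMN2 was the 16th most abundant gene of the library labelled WT and the 7th of the library labelled FKO, mitochondrial genes included. MAP1B ranked 35th and 8th. The order in the library labelled WT ran from STMN2, MAP1B and MAP2 through NEFL, NEFM, INA and MAPT to TUBB3, NEFH and PRPH. In the library labelled FKO the ends were in the same order, but INA and MAPT stood higher, so that INA, NEFL, MAPT and NEFM followed MAP2. No neighbours in either order had overlapping counting intervals.

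**Figure D1:**
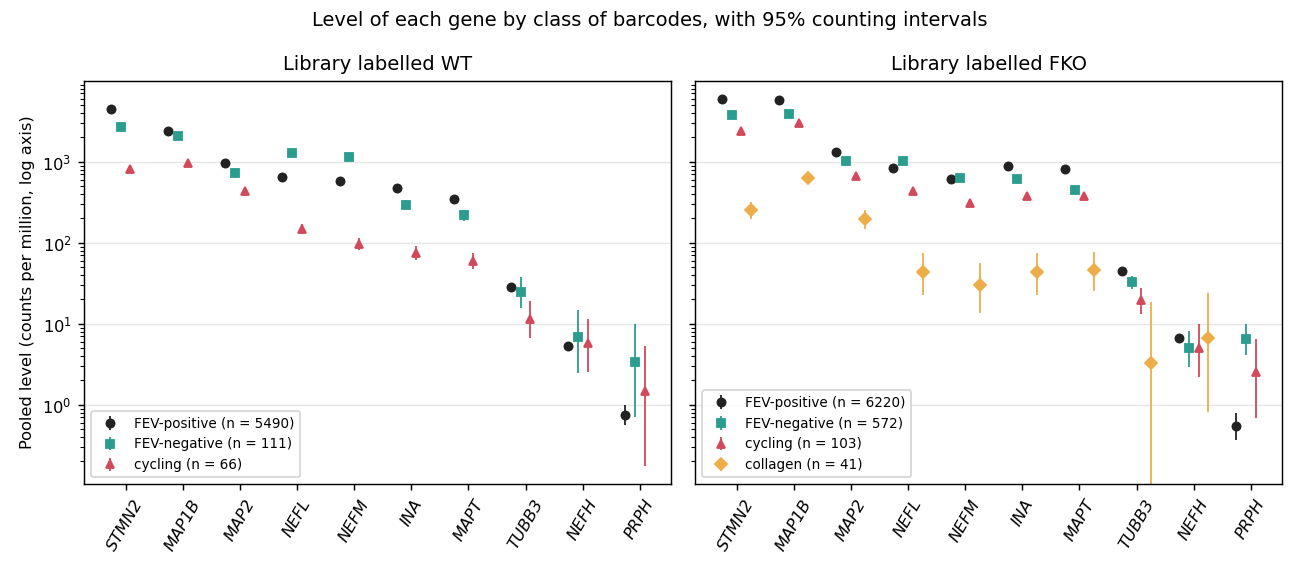
Pooled level of each gene (CPM, log axis) in each class of barcodes, with the library labelled WT on the left, the library labelled FKO on the right, and bars for exact 95% counting intervals. STMN2 in FEV-positive barcodes stood at 4475 CPM labelled WT and 5900 CPM labelled FKO, against 0.755 and 0.547 CPM for PRPH, and the collagen class is drawn for FKO only because the other library held 2 such barcodes.

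Among the neurofilament chains the light and medium chains and alpha-internexin were abundant, and the heavy chain and peripherin were nearly absent. NEFL, the light chain (ENSG00000277586, chromosome 8), had 50014 UMIs or 655 CPM (649 to 661) labelled WT and 47958 UMIs or 839 CPM (831 to 846) labelled FKO. NEFM, the medium chain (ENSG00000104722, chromosome 8), had 44781 UMIs or 586 CPM (581 to 592) labelled WT and 35088 UMIs or 614 CPM (607 to 620) labelled FKO. INA (ENSG00000148798, chromosome 10) had 35404 UMIs or 464 CPM (459 to 468) labelled WT and 49183 UMIs or 860 CPM (852 to 868) labelled FKO. Pooled in this way NEFM stood nearly level between the libraries and INA passed NEFL in the library labelled FKO, but both comparisons changed with the depth of a barcode. NEFH, the heavy chain with the long phosphorylated tail (ENSG00000100285, chromosome 22), had 412 UMIs or 5.39 CPM (4.89 to 5.94) labelled WT and 376 UMIs or 6.58 CPM (5.93 to 7.27) labelled FKO. PRPH (ENSG00000135406, chromosome 12) had 62 UMIs or 0.812 CPM (0.622 to 1.04) labelled WT and 54 UMIs or 0.944 CPM (0.709 to 1.23) labelled FKO.

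As shares of the summed UMIs of these 5 genes, the composition differed between the labels in the medium chain and alpha-internexin. In FEV-positive barcodes INA made up 27.5% (27.3 to 27.8) of the sum labelled WT and 38.0% (37.7 to 38.3) labelled FKO. NEFM made up 34.1% (33.9 to 34.4) labelled WT and 26.3% (26.0 to 26.5) labelled FKO. NEFL made up 38.0% labelled WT and 35.4% labelled FKO. The shares moved with depth, so they were also read in bins of depth after the values were seen. INA made up 34.9% labelled WT and 40.5% labelled FKO at 5000 to 10000 UMIs, and 28.1% and 33.9% at 10000 to 20000 UMIs. NEFL did not fall in those bins, with 31.4% and 33.2% in the first and 38.1% and 39.0% in the second. It was lower labelled FKO in the outer bins, with 26.8% and 24.9% at 1000 to 5000 UMIs and 40.9% and 39.7% at 20000 or more. The heavy chain was a trace of the sum in both libraries, with 0.308% labelled WT and 0.285% labelled FKO. Peripherin made up 0.0439% labelled WT and 0.0233% labelled FKO. In the FEV-negative class the light and medium chains took more of the sum, and INA made up 10.8% (9.62 to 12.1) labelled WT and 26.7% (25.8 to 27.8) labelled FKO. The share labelled WT rests on few barcodes, since the highest 12 of 111 held 79% of the NEFL UMIs and 78.8% of the NEFM UMIs. In 82 of the 111, outside the collagen class and without the markers of other neurons named below, INA had 99 UMIs, NEFL 210 and NEFM 208.

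**Figure D2:**
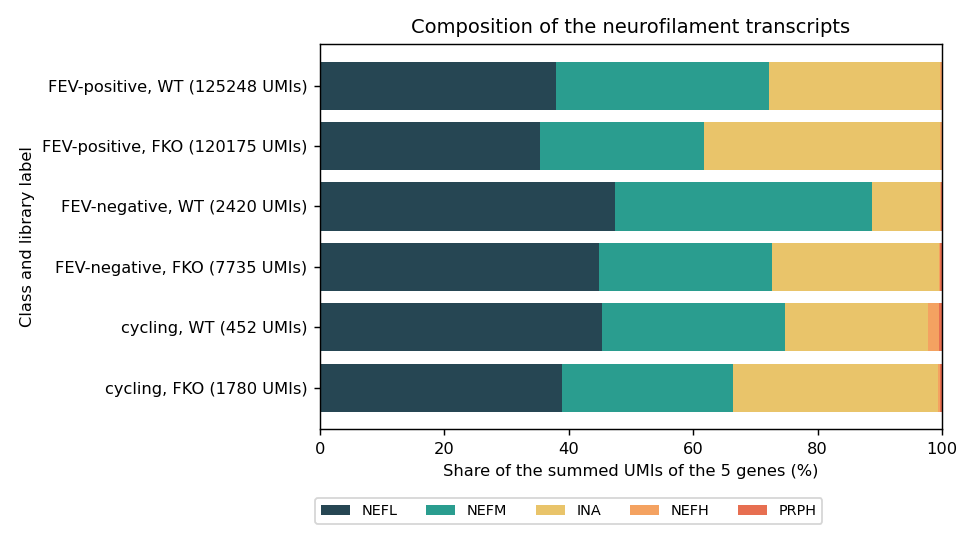
Share of the summed UMIs of 5 neurofilament genes (percent) held by each gene, as stacked bars by class and library label, with the summed UMIs beside each bar. INA held 27.5% of the sum in FEV-positive barcodes labelled WT, 38.0% in those labelled FKO and 10.8% in FEV-negative barcodes labelled WT. In that last class 12 of 111 barcodes held 79% of the NEFL UMIs.

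Of the microtubule-associated genes, MAPT and MAP1B were more than 2 times as high in the library labelled FKO. MAP2, which binds microtubules in dendrites and cell bodies (ENSG00000078018, chromosome 2), had 71898 UMIs or 941 CPM (935 to 948) labelled WT and 73841 UMIs or 1291 CPM (1282 to 1301) labelled FKO. MAPT, the axonal protein tau (ENSG00000186868, chromosome 17), had 25731 UMIs or 337 CPM (333 to 341) labelled WT and 44083 UMIs or 771 CPM (764 to 778) labelled FKO. MAP1B, which acts in growing axons (ENSG00000131711, chromosome 5), had 183089 UMIs or 2397 CPM (2386 to 2408) labelled WT and 318066 UMIs or 5562 CPM (5543 to 5581) labelled FKO. Among the 3, MAP1B was the most abundant in both libraries and MAPT the least.

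STMN2, a stathmin that binds tubulin dimers in growing axons (ENSG00000104435, chromosome 8), had 335279 UMIs or 4390 CPM (4375 to 4405) labelled WT. Labelled FKO it had 323495 UMIs or 5657 CPM (5637 to 5676). TUBB3, the beta tubulin of neurons (ENSG00000258947, chromosome 16), had 2129 UMIs or 27.9 CPM (26.7 to 29.1) labelled WT and 2452 UMIs or 42.9 CPM (41.2 to 44.6) labelled FKO. The TUBB3 level was low for a gene widely used as a neuronal marker, and its count may not stand for its transcript. Of the last 500 exonic bases of TUBB3, 495 (99%) also belonged to exons of another gene on the same strand, ENSG00000198211, in GENCODE release 29. That gene had 0 UMIs labelled WT and 1 UMI labelled FKO. How reads in the shared bases were counted is not given in the sources used here, and its part in the TUBB3 level was not tested. None of the other 9 genes shared an exonic base of its last 500 with a gene on its strand.

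The share of barcodes with a UMI was read at 1 depth, with every barcode thinned to 2000 UMIs. In FEV-positive barcodes STMN2 was then found in 98.8% (98.5 to 99.1) of 5466 barcodes labelled WT and 99.3% (99 to 99.5) of 6169 labelled FKO. INA was found in 59.3% labelled WT and 81.3% labelled FKO, and MAPT in 46.7% and 75.2%. NEFM was found in about the same share, 54.2% labelled WT and 55.7% labelled FKO. The collagen class labelled FKO, which should lack neuronal transcripts, is given as a low reference. Because it was chosen to hold no FEV UMI, the level that free RNA could reach cannot be read from this class. There STMN2 was found in 41.5% (26.3 to 57.9) of 41 barcodes and INA in 4.88% (0.596 to 16.5), with median depths of 6187 UMIs in that class and 6945 UMIs in FEV-positive barcodes before thinning. NEFH was found in 1.30% (1.03 to 1.61) of the FEV-positive barcodes labelled FKO against 2.44% (0.0617 to 12.9) of the collagen barcodes. With 41 barcodes the collagen class was too small to tell whether so low a share stood above it. PRPH was found in 0.0915% of the FEV-positive barcodes labelled WT and 0.130% labelled FKO, beside 0 of 41 collagen barcodes, which allows a share of up to 7.32%.

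Promoters are shown for an abundant and for the rarest neurofilament gene, INA and PRPH, and for MAP1B, which was higher in the library labelled FKO as INA was. RefSeq promoter windows (GRCh38.p14), from 250 bases before to 50 after a transcript start, were examined for 5 of the 10 genes: INA, PRPH, MAP2, MAP1B and TUBB3. Windows of the other genes were not examined, which does not mean that RefSeq holds none for them. The examined windows were searched on both strands for TATAAA, the core of a TATA box, and for CAGCTG, an E-box. Capitals mark the matches, and all 4 windows lie on the plus strand, at chr10:103276888-103277187 for INA, chr12:49294897-49295196 for PRPH, and chr5:72107225-72107524 and chr5:72179537-72179836 for the first and second MAP1B start.
INA: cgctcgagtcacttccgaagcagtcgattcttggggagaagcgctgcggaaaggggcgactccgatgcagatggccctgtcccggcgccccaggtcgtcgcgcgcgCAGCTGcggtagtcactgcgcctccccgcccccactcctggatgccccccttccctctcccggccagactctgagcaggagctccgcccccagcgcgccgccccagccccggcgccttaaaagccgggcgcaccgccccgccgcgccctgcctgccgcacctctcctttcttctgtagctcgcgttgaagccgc
PRPH: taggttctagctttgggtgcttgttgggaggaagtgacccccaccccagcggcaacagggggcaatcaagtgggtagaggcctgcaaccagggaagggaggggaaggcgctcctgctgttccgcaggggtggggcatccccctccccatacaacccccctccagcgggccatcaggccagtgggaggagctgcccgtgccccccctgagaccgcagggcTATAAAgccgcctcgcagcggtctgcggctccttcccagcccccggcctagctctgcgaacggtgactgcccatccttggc
MAP1B first start: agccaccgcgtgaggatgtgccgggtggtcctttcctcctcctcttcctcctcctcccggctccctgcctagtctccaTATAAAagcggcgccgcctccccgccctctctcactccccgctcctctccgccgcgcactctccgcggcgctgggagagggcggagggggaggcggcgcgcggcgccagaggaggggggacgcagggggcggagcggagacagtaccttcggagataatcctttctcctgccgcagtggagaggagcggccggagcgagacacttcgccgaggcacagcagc
MAP1B second start: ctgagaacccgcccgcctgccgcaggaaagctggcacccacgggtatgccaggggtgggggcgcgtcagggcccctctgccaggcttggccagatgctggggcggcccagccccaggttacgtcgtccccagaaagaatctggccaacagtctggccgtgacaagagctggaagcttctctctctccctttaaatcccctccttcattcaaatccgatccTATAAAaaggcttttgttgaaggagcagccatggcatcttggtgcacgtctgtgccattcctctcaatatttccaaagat
INA held CAGCTG 144 bases before its start. PRPH held TATAAA 31 bases before its start, although it was the least abundant of the 10 genes here. MAP1B held TATAAA 172 bases before its first start and 30 bases before its second. MAP2, with 3 windows, and TUBB3, with 2, held neither motif. Among all 35116 promoter windows 11.5% held TATAAA and 17.9% held CAGCTG, and a match is a description of the letters only.

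Set against all genes, the pooled library ratio of these genes was ordinary as a group. Over the 10 genes the FKO over WT log2 ratio had a median of 0.41, against 0.47 over the 9678 genes with at least 10 CPM in either library, of which 72.5% lay above 0. Without mitochondrial and ribosomal protein genes in the totals the all-gene median moved to 0.36, and over genes with at least 1 CPM it was 0.58, so ratios are given relative to it. MAP1B (log2 1.21, or 0.74 relative to all genes) and MAPT (1.19, or 0.72) were the 2 genes at least 1.5-fold above the all-gene median, a limit that 17.8% of all genes passed. None of the 10 was at least 1.5-fold below it, where 23.3% of all genes stood. These counts cover all 10 genes, of which NEFH and PRPH were under 10 CPM in both libraries. The share of all genes past these limits was not computed at other settings, so the counts that follow have no such share beside them. At a mitochondrial limit of 5%, which left 341 barcodes labelled WT, 5 genes were past a limit: INA, MAPT and MAP1B above, and NEFM and PRPH below. In FEV-positive barcodes alone PRPH also stood past the lower limit, on 28 UMIs labelled FKO and 55 labelled WT, of which 12 came from 1 barcode.

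By role, the neurofilament genes divided around the all-gene median while MAPT and MAP1B stood above it. INA lay above the median of all genes (log2 0.89, 0.87 to 0.91, or 0.42 relative to it). NEFL lay just under it when pooled (log2 0.36, 0.34 to 0.37, or -0.12 relative to it). NEFM lay furthest under it of the 10 genes (log2 0.07, 0.05 to 0.09, or -0.41 relative to it), and its direction turned to -0.15 at a mitochondrial limit of 5%. Without mitochondrial and ribosomal protein genes in the totals it was -0.05, but that scaling moved all genes alike, and NEFM stayed at -0.41 relative to the all-gene median. For NEFH the log2 ratio was 0.29 (0.08 to 0.49). The PRPH ratio of 0.22 (-0.34 to 0.77) was not resolved at this depth, and it turned to -0.46 in FEV-positive barcodes and to -0.21 at a mitochondrial limit of 5%. MAP2 lay close to the all-gene median (log2 0.46, or -0.02 relative to it), and it stood above it in FEV-positive barcodes (0.01). STMN2 lay at 0.37, or -0.11 relative to all genes. TUBB3 lay at 0.62 (0.54 to 0.71), or 0.15 relative to all genes.

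Gene length moved with the library ratio across the genome. Over 9633 genes with a length in GENCODE release 29 (99.5%), Spearman's rho between the log2 ratio and gene length was 0.45, a relation across genes, which are not independent replicates. The median log2 ratio rose from -0.27 in the shortest of 10 groups of genes by length to 0.94 in the longest. NEFL, NEFM and PRPH are short genes, of 6.16, 6.09 and 5.43 kb, and MAP2, MAPT and MAP1B are long ones, of 310, 134 and 102 kb. Relative to the median of its own length group, a comparison added after the values were seen, INA stood highest at 0.74 and was the only gene of the 10 past 1.5-fold. The share of all genes past 1.5-fold in this comparison was not computed. MAP1B then stood at 0.47, TUBB3 at 0.47, NEFL at 0.40 and MAPT at 0.35. MAP2 fell to -0.48 and STMN2 to -0.24, so both had a lower ratio than genes of their length. The part of gene length in the ratio of any of these genes was not tested.

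**Figure D3:**
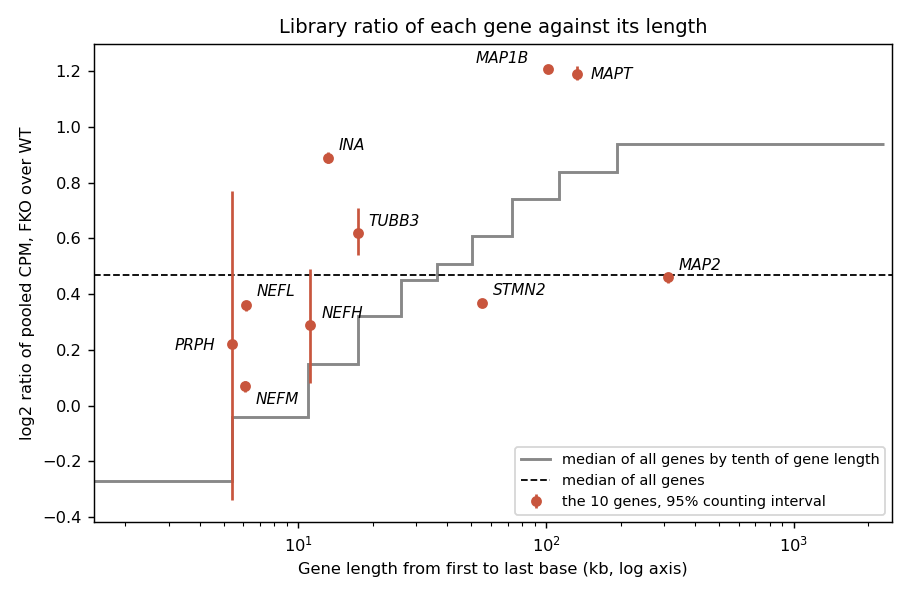
Log2 ratio of pooled CPM, FKO over WT, against gene length (kb, log axis) for the 10 genes, with exact 95% counting intervals, the median of all genes (dashed, 0.47) and the median in each length group (steps, from -0.27 to 0.94). MAPT and MAP1B lie at 1.19 and 1.21, INA at 0.89 lies 0.74 above its step, MAP2 lies under its step, and NEFM at 0.07 turned to -0.15 at a mitochondrial limit of 5%, PRPH at 0.22 to -0.21.

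Mitochondrial share and depth also moved with the levels. In the library labelled FKO STMN2 stood at 5755 CPM in barcodes with under 5% mitochondrial UMIs, 5579 CPM from 5 to 10%, 3612 CPM from 10 to 20% and 1745 CPM at 20% or more. In the library labelled WT STMN2 stood at 3813, 4419, 3872 and 2995 CPM in the same bins. At 20% or more the level was thus the lowest in both libraries, while from 10 to 20% it was below both lower bins only labelled FKO. The low bin labelled WT also held more VIM, an intermediate filament of progenitors, with 1478 CPM against 673 CPM from 5 to 10%. In FEV-positive barcodes labelled WT NEFL went from 286 CPM in barcodes of 1000 to 5000 UMIs to 877 CPM in those of 20000 or more. Labelled FKO it went from 407 to 1083 CPM between the same bins. INA did not share that trend, with 450 and 468 CPM labelled WT and 797 and 917 CPM labelled FKO. In the middle bins of depth, an alternative added after seeing the data, the libraries compared otherwise than when pooled. The bins did not make depth equal, since the median was 8632.5 UMIs labelled WT and 6838 labelled FKO from 5000 to 10000 UMIs, and 13238 and 12602 from 10000 to 20000 UMIs. From 5000 to 10000 UMIs NEFL stood at 392 CPM labelled WT and 737 CPM labelled FKO, a log2 ratio of 0.91, or 0.44 relative to all genes. From 10000 to 20000 UMIs it stood at 653 and 1035 CPM, a log2 ratio of 0.66, or 0.19 relative to all genes. NEFL thus lay above the all-gene median in both bins, where pooled it lay just under it. NEFM stood at 416 and 579 CPM in the first bin and 572 and 709 CPM in the second, or 0.01 and -0.17 relative to all genes. INA was above NEFL in the first bin and below it in the second under both labels, with 436 and 901 CPM in the first and 482 and 900 CPM in the second. MAPT and MAP1B were the genes at least 1.5-fold above in both bins, and PRPH the gene below, on 8 UMIs labelled FKO in each. The share of all genes past these limits was not computed within the bins. Over the 10 genes the median log2 ratio was 0.61 and 0.64, or 0.15 and 0.16 relative to all genes. In the outer bins the comparisons were not all alike. At 20000 or more UMIs NEFM was lower labelled FKO, with 793 CPM labelled WT and 717 CPM labelled FKO, while NEFL was higher, as when pooled. From 1000 to 5000 UMIs, with 133 barcodes labelled WT, NEFM stood at 332 CPM labelled WT and 424 CPM labelled FKO. Why these levels moved with depth was not tested.

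FEV-positive barcodes held more of most of these transcripts than cycling barcodes did. In the library labelled WT the median log2 ratio of FEV-positive over cycling barcodes was 1.72 over the 10 genes, against 0.16 over all 9318 genes tested. The 8 genes with at least 10 CPM in either class were all at least 2-fold higher in FEV-positive barcodes, where 16.8% of all genes passed that limit. Labelled WT 6 genes passed at a mitochondrial limit of 5%, thinned to 2000 UMIs and against cycling barcodes without a FEV UMI, and MAP2 was short of the limit at each. In the library labelled FKO the median was 0.99, against 0.04 over all 10740 genes tested, and 4 of 8 genes passed, where 6.70% of all genes did. INA, MAPT, TUBB3 and STMN2 were those 4, and NEFM and MAP2, each at 1.99-fold, were just under the limit. Of the same 8 genes 0 passed at a mitochondrial limit of 5%, 1 with doublets kept, 5 with at least 5 of 10 cell cycle genes, 6 at 2 other settings and 7 with every barcode thinned to 2000 UMIs. All 8 passed against cycling barcodes without a FEV UMI. For neither library was the share of all genes computed at these other settings, so these counts have no such share beside them. The median labelled FKO moved to 0.49 at the 5% limit. Thinned, it was 1.52 with 2 genes without UMIs in cycling barcodes set at a floor of 3 counts, and 1.76 over the 8 others.

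Among the neurofilament genes in the library labelled WT, NEFM stood at 587 CPM in FEV-positive and 96.8 CPM in cycling barcodes, a log2 ratio of 2.60 (2.36 to 2.86). INA stood at 473 and 75.7 CPM, a log2 ratio of 2.64 (2.37 to 2.94). NEFL had a log2 ratio of 2.13 (1.93 to 2.34). These 3 chains were 4.38-fold to 6.25-fold higher in FEV-positive barcodes labelled WT. Labelled FKO they were higher by less, 1.89-fold for NEFL, 1.99-fold for NEFM and 2.39-fold for INA. That difference between the libraries depended on the setting. Thinned to 2000 UMIs, the log2 ratios were 2.10 labelled WT and 1.96 labelled FKO for NEFM, 2.33 and 2.04 for INA, and 1.98 and 0.89 for NEFL. Against cycling barcodes without a FEV UMI the NEFL ratio was higher labelled FKO, with 1.18 labelled WT and 3.19 labelled FKO. The NEFM and INA ratios were higher labelled WT, with 5.73 and 3.09 for NEFM and 4.42 and 4.29 for INA. Labelled WT these rest on 8 such barcodes, with 1 NEFM UMI and 2 INA UMIs. The heavy chain showed no such difference, with a log2 ratio of -0.14 (-1.13 to 1.09) from 8 UMIs in cycling barcodes. PRPH had 2 UMIs in cycling barcodes labelled WT and 4 in those labelled FKO, too few for a direction in the first, while the second gave a log2 ratio of -2.22 (-3.73 to -0.24).

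The microtubule genes divided by class in a graded way in the library labelled WT. STMN2 stood at 4475 CPM in FEV-positive and 824 CPM in cycling barcodes labelled WT, and MAPT at 343 and 59.7 CPM. Their log2 ratios were 2.44 (2.36 to 2.53) and 2.52 (2.21 to 2.85). MAP1B and MAP2 were less restricted to FEV-positive barcodes, with log2 ratios of 1.31 (1.23 to 1.39) and 1.14 (1.02 to 1.26). TUBB3 had a log2 ratio of 1.28 (0.58 to 2.09). Labelled FKO the ratios lay closer together, at 1.29 for STMN2, 1.17 for TUBB3, 1.1 for MAPT, 1.0 for MAP2 and 0.93 for MAP1B. VIM and NES, the intermediate filament genes of neural progenitors, ran the other way, with log2 ratios of -3.40 and -2.40 labelled WT and -2.41 and -2.74 labelled FKO. Summed over 8 progenitor markers, none at 0 and VIM the highest, cycling barcodes held 6779 CPM labelled WT and 4373 CPM labelled FKO. FEV-positive barcodes held 747 and 817 CPM of them.

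Cycling barcodes of the 2 libraries were unlike each other in NEFL, NEFM, INA, MAPT, MAP1B and STMN2. The FKO over WT ratios of these genes lay above the all-gene median of the class, a log2 ratio of 0.56. MAP2 lay near it at 0.63 (0.48 to 0.77), and the counting intervals of TUBB3, NEFH and PRPH included it. MAPT stood at 59.7 CPM in cycling barcodes labelled WT and 375 CPM in those labelled FKO, a log2 ratio of 2.65 (2.32 to 3.0), against 1.23 in FEV-positive barcodes. INA stood at 75.7 and 373 CPM, a log2 ratio of 2.30 (2.0 to 2.62), against 0.92 in FEV-positive barcodes. NEFM, nearly level when pooled over FEV-positive barcodes, had a log2 ratio of 1.68 (1.40 to 1.97) in cycling ones. Few barcodes carried these UMIs in either library. In the cycling class labelled FKO the highest 11 of 103 barcodes held 66.8% of the MAPT UMIs and 56.7% of the STMN2 UMIs. Labelled WT the highest 7 of 66 held 62.2% and 58.7%.

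In the cycling class STMN2 and MAPT came mostly from barcodes with several FEV UMIs. This split was made after the values were seen. Cycling barcodes without a FEV UMI (8 labelled WT, 38 labelled FKO) held STMN2 at 255 CPM (161 to 382) labelled WT and 268 CPM (218 to 326) labelled FKO. With 1 to 4 FEV UMIs (36 and 32 barcodes) STMN2 stood at 258 CPM labelled WT and 446 CPM labelled FKO. With 5 or more (22 and 33 barcodes) it reached 1675 CPM (1569 to 1787) labelled WT and 4279 CPM (4139 to 4422) labelled FKO. MAPT was also highest at the last of these steps, with 11.1, 17.7 and 124 CPM labelled WT and 26.8, 64.2 and 673 CPM labelled FKO. In both libraries the intervals of its first and second values overlapped. The first value labelled WT rests on 1 UMI (0.28 to 61.7 CPM). MAP1B changed less, with 942, 820 and 1194 CPM labelled WT, but labelled FKO it stood at 1293, 1387 and 4547 CPM. NEFL and MAP2 did not rise along the steps labelled WT, with 288, 93.8 and 201 CPM for NEFL and 532, 379 and 489 CPM for MAP2. Labelled FKO they stood at 91.2, 134 and 737 CPM and at 349, 406 and 930 CPM. Depth rose with the FEV UMIs, from a median of 11612.5 to 24938 UMIs labelled WT and from 9251.5 to 20242 UMIs labelled FKO. VIM stood at 7865, 6090 and 5651 CPM along the same steps labelled WT and at 5066, 5197 and 2387 CPM labelled FKO. Against cycling barcodes without a FEV UMI, the median log2 ratio over the genes was 2.62 labelled FKO. Labelled WT it was 1.27 with PRPH and TUBB3, which had no UMI there, at a floor of 3 counts, and 2.75 over the 8 others. Whether barcodes with both kinds of transcript held 1 cell or more was not tested.

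**Figure D4:**
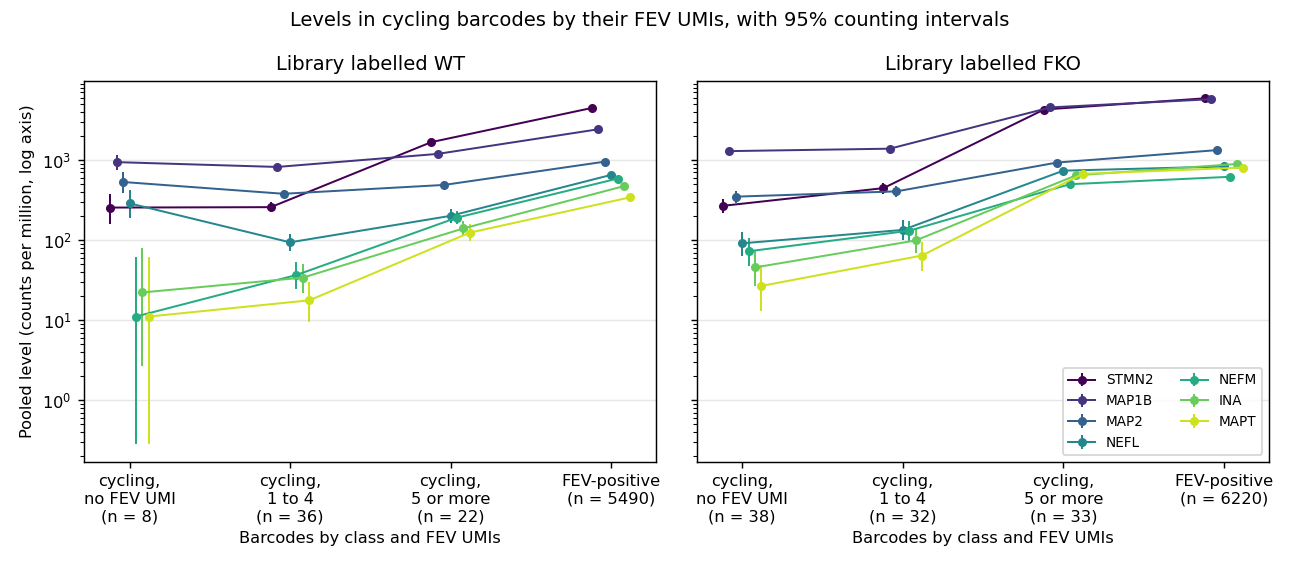
Pooled level (CPM, log axis) of 7 genes in cycling barcodes by their FEV UMIs and in FEV-positive barcodes, with lines joining the values of a gene and bars for exact 95% counting intervals. STMN2 labelled FKO went from 268 CPM without a FEV UMI to 4279 CPM with 5 or more, below the 5900 CPM of FEV-positive barcodes.

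FEV-negative barcodes held more neurofilament light and medium chain than FEV-positive ones in the library labelled WT. NEFL stood at 1295 CPM (1221 to 1372) in FEV-negative and 653 CPM in FEV-positive barcodes there, and NEFM at 1132 CPM (1063 to 1204) and 587 CPM. Labelled FKO NEFL stood at 1024 CPM (991 to 1059) and 831 CPM. NEFM there stood at 638 CPM (612 to 666) and 618 CPM, with overlapping intervals. The other abundant members went the other way: STMN2 stood at 2702 CPM in FEV-negative against 4475 CPM in FEV-positive barcodes labelled WT, and at 3775 against 5900 CPM labelled FKO. PRPH was rare in both classes, but labelled FKO 22 of its 54 UMIs lay in FEV-negative barcodes, at 6.5 CPM (4.07 to 9.84) against 0.547 CPM in FEV-positive ones. Those 22 UMIs lay in 1.22% of the 572 barcodes, with up to 6 in 1 barcode, which the counting interval does not include.

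The NEFL and NEFM of this class came from few barcodes. In FEV-negative barcodes labelled WT the highest 12 of 111 held 79.0% of the NEFL UMIs and 78.8% of the NEFM UMIs. After the values were seen the class was split by UMIs of ISL1, LHX1, LHX5, SLC17A6, GAD1 or GAD2, markers of other neurons. With such a marker, NEFL stood at 3105 CPM (2910 to 3311) in 27 barcodes labelled WT and 1920 CPM (1835 to 2008) in 161 labelled FKO. NEFM stood at 2631 CPM (2451 to 2821) in the former and 1150 CPM (1084 to 1218) in the latter. The remaining barcodes had no such marker and lay outside the collagen class. There NEFL stood at 378 CPM (329 to 433) in 82 barcodes labelled WT and 722 CPM (686 to 759) in 375 labelled FKO. NEFM stood at 374 CPM (325 to 429) and 470 CPM (442 to 501), so both genes were higher labelled FKO there. Median depth labelled WT was 9063 UMIs with a marker and 5720 UMIs in the remaining barcodes. Labelled FKO it was 5444 and 5055 UMIs. The remaining barcodes were rich in VIM, at 3730 CPM labelled WT and 2932 CPM labelled FKO, against 511 and 677 CPM with a marker. Summed over the 6 markers, FEV-negative barcodes held 103 CPM labelled WT, led by LHX1 at 40.7 CPM with ISL1 at 0, and 164 CPM labelled FKO, led by LHX1 at 67.4 CPM. The 6 collagen class genes summed to 295 CPM in the FEV-negative class labelled WT, led by LUM at 176 CPM with COL1A1 at 0, and to 1477 CPM labelled FKO, led by COL1A2 at 517 CPM. The part of these neurons in the class's levels was not tested beyond this split.

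Collagen barcodes gave the low end. Labelled FKO the collagen class held STMN2 at 4.28% (3.37 to 5.36) of its FEV-positive level, NEFL at 5.19% (2.77 to 8.88) and INA at 4.84% (2.57 to 8.27). MAP1B, at 10.9% (9.41 to 12.6), and MAP2, at 14.7% (11.2 to 19.0), stood higher, and their intervals did not overlap those of STMN2, NEFL and INA, so the genes were not in the same ratio as in FEV-positive barcodes. MAPT stood at 5.78% (3.16 to 9.70), overlapping MAP1B. NEFH stood at 99.1% (12 to 361) of its FEV-positive level on 2 UMIs, so no difference was detectable.

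Across FEV-positive barcodes thinned to 5000 UMIs, NEFL and NEFM varied together. Their Spearman's rho was 0.44 over 5357 barcodes labelled WT and 0.43 over 5105 labelled FKO, the highest of the 45 pairs in each library. Barcodes of a library share their preparation and are not replicates, so rho is a description. Over all 45 pairs the median rho was 0.03 labelled WT and 0.04 labelled FKO. For the 7 genes with at least 50 CPM in both libraries the 21 pairs had a median of 0.17 labelled WT and 0.13 labelled FKO, beside 0.002 and 0.001 over all 3667986 pairs of 2709 genes with at least 50 CPM. Those medians of 0.17 and 0.13 moved with depth, to 0.09 and 0.08 at 2000 UMIs and to 0.23 and 0.19 at 10000 UMIs. A rho above 0.1 was found for 17 of the 21 pairs labelled WT and 13 labelled FKO, beside 0.398% and 0.291% of all pairs. The 7 genes were far more abundant than most of those genes. Among the 188 genes at least as abundant as the rarest of the 7 in each library, a comparison added after the values were seen, the median rho was 0.01 labelled WT and 0.02 labelled FKO, and 22.7% and 23% of 17578 pairs were above 0.1. Sparse genes correlate weakly whatever they do, so the values near 0 for NEFH, PRPH and TUBB3 are no finding.

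MAP1B varied with genes of both groups, though little with NEFM. MAP1B had a rho of 0.25 with NEFL labelled WT and 0.27 labelled FKO, of 0.14 and 0.08 with NEFM, and of 0.21 and 0.25 with MAPT. Its rho with STMN2 was 0.26 labelled WT and 0.13 labelled FKO. INA, the neurofilament gene with the highest pooled ratio of FKO over WT, had a rho of 0.16 with NEFL labelled WT and 0.13 labelled FKO, and of 0.22 and 0.20 with MAP1B. MAP2 and STMN2, both abundant, had a rho of 0.03 labelled WT and -0.03 labelled FKO. Such weak values are no finding on their own.

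**Figure D5:**
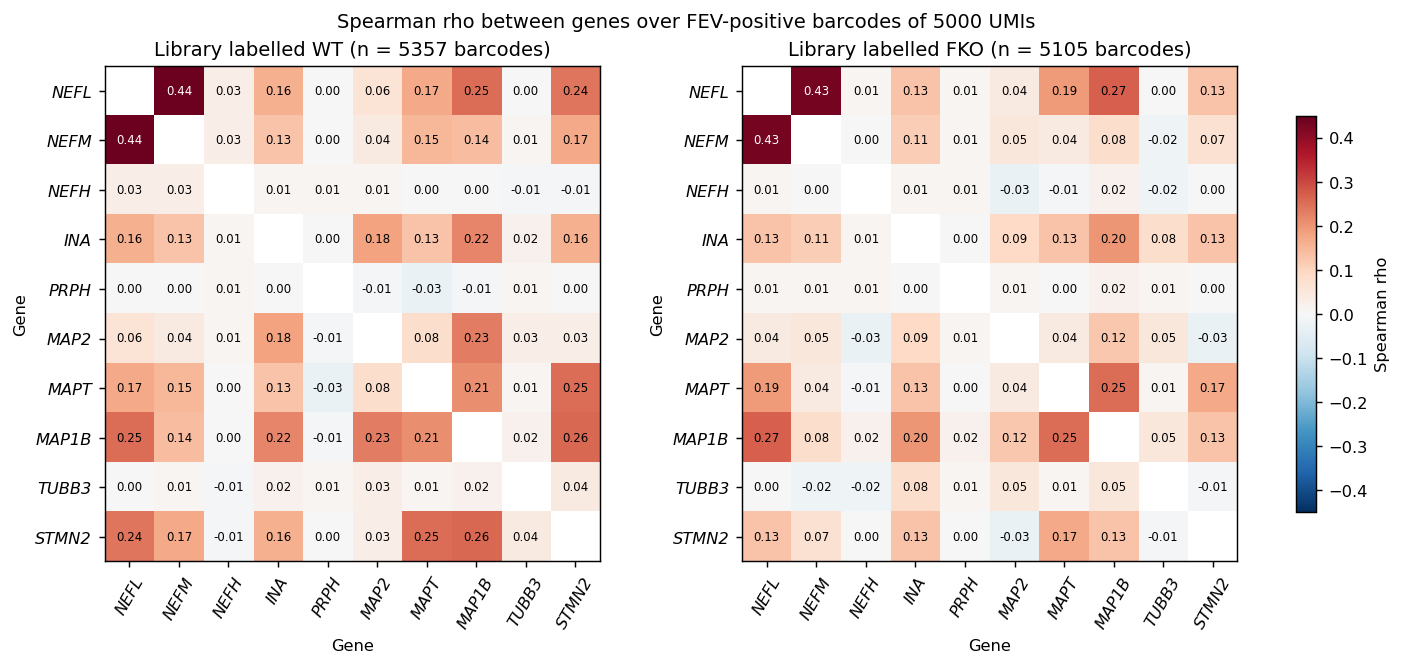
Spearman's rho between each pair of the 10 genes over FEV-positive barcodes thinned to 5000 UMIs, with the library labelled WT on the left (5357 barcodes) and the library labelled FKO on the right (5105 barcodes). NEFL and NEFM have the highest value in both, 0.44 and 0.43, and most pairs with NEFH, PRPH or TUBB3 lie near 0.

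The light and medium chains were also the most uneven of the abundant members. At 5000 UMIs the variance of NEFL over its mean was 4.29 labelled WT and 3.89 labelled FKO, at percentile 99.3 of 2709 genes in both. NEFM had ratios of 4.18 and 3.58, at percentiles 99.3 and 99.1. INA, at a like level, had 1.30 labelled WT and 1.28 labelled FKO. The difference is visible in single barcodes, since a FEV-positive barcode labelled WT held a median of 6 NEFL UMIs and at most 250, against 5 and 44 for INA. The highest 549 of 5490 FEV-positive barcodes labelled WT held 39.1% of the NEFL UMIs, against 24.9% of the INA UMIs. Labelled FKO the highest 622 of 6220 held 40.7% and 27.2%.

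Outside the 10 genes, those most like NEFM across barcodes differed from those most like STMN2. Of 1343 genes with at least 100 CPM in both libraries, PLS3, an actin-bundling protein, had the highest mean rho with NEFM, 0.26 over the 2 libraries. NR2F2, a nuclear receptor (0.21), NTM, a neural adhesion protein (0.19), and NRP2, a guidance receptor (0.17), followed. STMN2 was matched most closely by TUBB2A, a beta tubulin (0.29), GAP43, a growth cone protein (0.29), and STMN1, another stathmin (0.28). TMSB10, an actin-binding thymosin (0.26), and RTN1, a reticulon (0.26), came next.

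The other cytoskeletal genes were given by lists with the same filter of 10 CPM. Of 12 other intermediate filament genes 8 passed, with a median log2 ratio of FKO over WT of 0.44. SYNM (1.80), LMNB2 (1.16) and LMNA (0.56) were the highest, and KRT19 (-1.83), KRT10 (-0.61) and NES (-0.45) the lowest. The synemin gene SYNM codes for an intermediate filament protein that needs a partner such as vimentin, and LMNB2 and LMNA code for lamins of the nucleus. Of 13 other tubulin genes 10 passed, with a median of -0.04, under the all-gene median of 0.47. TUBB4A (1.04), TUBE1 (0.57) and TUBB (0.18) were the highest, and TUBA1C (-0.86), TUBA1B (-0.43) and TUBG1 (-0.31) the lowest. Among the 10, TUBB4A alone had a ratio above the 0.62 of TUBB3, none was at least 1.5-fold above the all-gene median, and 4 were at least 1.5-fold below it, where 23.3% of all genes stood.

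Lists of axonal transport and membrane skeleton genes lay above the median of all genes. Of 21 other microtubule-binding and stathmin genes 20 passed, with a median of 0.70. DCX (1.29), DPYSL5 (1.24) and DCLK1 (1.20), which bind microtubules in migrating and growing neurons, were the highest, and STMN1 (-0.29), DPYSL4 (-0.03) and MAPRE1 (0.10) the lowest. All 16 motor genes passed, with a median of 0.77, and the kinesins KIF3C (1.54), KIF21B (1.40) and KIF1B (1.31) were the highest. DYNC1I2 (-0.21), a dynein chain, KIF5B (0.23) and KLC2 (0.26) were the lowest motors. All 11 spectrin, ankyrin and growth cone genes passed, with a median of 0.95. ADD2 (1.45), ANK2 (1.41) and SPTBN1 (1.15), of the membrane skeleton, were the highest there, and BASP1 (0.12), GAP43 (0.33) and MARCKS (0.58) the lowest. Against MAP1B and MAPT at 1.21 and 1.19, STMN2 at 0.37 was thus nearer to STMN1 and the growth cone genes GAP43 and BASP1. Whether gene length accounts for the order of these lists was not tested.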

How the data were processed

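Values in the deposited matrices were raw counts of UMIs, whole numbers by gene and barcode that the authors had not normalized, for 1 library labelled WT and 1 labelled FKO, made with Cell Ranger (7.1.0 per the file headers, 7.0 in the processing notes) on GRCh38. The annotation release and the counting of introns are not given in the sources used here. Scrublet in scanpy 1.11.5 scored doublets in each library, and the highest 977 barcodes labelled WT and 620 labelled FKO were marked. Pooled CPM were a gene's UMIs over all UMIs of the barcodes, 76369650 labelled WT and 57185622 labelled FKO after filtering. Log2 ratios had no pseudocount, but a gene without UMIs in cycling barcodes stood at 3 counts in the class medians of alternatives. Intervals (scipy 1.17.1) were exact: Poisson (levels), Clopper-Pearson (shares) and binomial given both counts' sum (ratios). A count of 0 allows up to 3 counts. Barcodes were thinned without replacement for shares and correlations. Lengths and exons came from GENCODE release 29, matched by Ensembl identifier, and promoters from RefSeq. The procedures were tested on simulated data. Named genes were the members, FOXA2, FEV and TPH2, the 3 highest and 3 lowest of each list, and the 5 most like NEFM and STMN2; VIM was also named after its values were seen. Some results under this rule are not reported here. The members and lists were chosen with earlier results of these data known. Alternatives changed the limits on barcodes and genes, doublets, depth, scaling and classes. Barcodes with UMIs of exactly 2 cell cycle genes (74 labelled WT, 79 labelled FKO) were in neither the FEV-positive, the FEV-negative nor the cycling class.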

Additional observations from a re-analysis of the deposited data

Results flagged for a closer look

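NEFL and NEFM differed in direction between classes of barcodes. In FEV-positive barcodes the log2 ratio of FKO over WT was 0.35 for NEFL, and in FEV-negative barcodes it was -0.34. For NEFM the log2 ratio was 0.07 in FEV-positive and -0.83 in FEV-negative barcodes. Relative to the all-gene median of its class neither gene differed in direction, since both lay below, NEFL at -0.12 and -0.77 and NEFM at -0.39 and -1.26. Each class had 1 library per label, so the difference between classes was not tested. The FEV-negative class held 111 barcodes labelled WT, of which 27 had a UMI of another neuron's marker, and 572 labelled FKO, of which 161 did. With such a marker NEFL stood at 3105 CPM labelled WT and 1920 CPM labelled FKO, and NEFM at 2631 and 1150 CPM. In the remaining barcodes outside the collagen class NEFL stood at 378 and 722 CPM and NEFM at 374 and 470 CPM, so both were higher labelled FKO there. The part of the barcodes with a marker in the difference was not tested.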

How the results depend on the processing

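Of 49 recomputed summary values 32 stayed within their interval or within 1.5 times the count, 17 moved and 0 reversed. Only medians of log2 ratios could be marked as reversed, so the 0 says nothing of the counts of genes or of rho. For rho the interval was set by the number of barcodes, which are not replicates. Of 252 values of single genes 146 stayed and 106 moved, some of them to the other sign. The ratio of FKO over WT was above 0 in 94 of 100 recomputed member values, and the 6 others were those of NEFM and PRPH. Among these settings, the filter of 1 CPM left every member ratio as it was. Totals without mitochondrial and ribosomal protein genes moved all genes alike, which gave the NEFM value of -0.05 among the 6. The side of the all-gene median changed in 13 of 100, for MAP2 and NEFH (3 settings each), PRPH, STMN2 and NEFL (2 each) and NEFM (1). Of these 13, 7 came from FEV-positive barcodes of 5000 to 10000 and of 10000 to 20000 UMIs, alternatives added after seeing the data, where the median ratio over the 10 genes was 0.61 and 0.64 and PRPH stood at -2.19 and -0.14. At a mitochondrial limit of 5%, which left 341 barcodes labelled WT, the median ratio over the 10 genes was 0.68, 5 genes were past 1.5-fold, the FEV-positive over cycling medians were 1.52 labelled WT and 0.49 labelled FKO, and the median rho labelled WT was 0.11. Without mitochondrial and ribosomal protein genes in the totals the median ratio was 0.30. Centred on 10 groups by gene length, an alternative added after seeing the data, 1 gene was past 1.5-fold. The share of all genes past 1.5-fold was not computed at these alternatives. For FEV-positive over cycling barcodes labelled WT the median was 2.24 with at least 5 of 10 cell cycle genes, 1.56 at 2000 UMIs a barcode and, added after seeing the data, 1.27 against cycling barcodes without a FEV UMI. Genes without UMIs in cycling barcodes stood at a floor of 3 counts in these medians, and over the other genes labelled WT they were 1.84 at the mitochondrial limit of 5% (1 gene at the floor), 2.10 at 2000 UMIs (3 genes) and 2.75 without a FEV UMI (2 genes). Labelled FKO it was 0.74 with doublets kept, 1.52 at 2000 UMIs a barcode (1.76 without 2 genes at the floor) and, added after seeing the data, 2.62 without a FEV UMI. The median rho labelled FKO was 0.07 at 10000 UMIs and 0.07 over all kept barcodes. The cause of these moves was not tested. No paired analysis was possible because each label had 1 library. Depth limited NEFH and PRPH, whose ratios between classes rest on 2 to 8 UMIs in cycling barcodes.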
